A study of Mus musculus with 16 samples.

Results

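The regions described here are the chromatin around 5 genes for surface proteins of activated and exhausted T cells: Pdcd1, Havcr2, Entpd1, Nt5e and Cd38. Each region is the gene body in the curated RefSeq annotation of mm10 (GRCm38) plus 50 kb on either side, and every peak of 12 deposited peak lists that touched a region was taken. This gave 196 of the 214352 peaks in all lists. Of the 196, 31 touched a window of 1 kb on either side of a transcription start site (TSS) of the gene itself, 15 touched such a window of a neighbouring gene, and 150 touched no TSS window of any gene. The last are called distal, and they were 150 of 120733 distal peaks in all lists. Their summit (LSD1, Pol II) or midpoint (histone marks) lay in an intron for 88, in an exon for 6 and between genes for 56.

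The lists come from chromatin immunoprecipitation and sequencing (ChIP-seq) of cultured mouse CD8+ T cells with antibodies to the demethylase LSD1, to RNA polymerase II (Pol II) and to the histone marks H3K27ac, H3K4me3, H3K4me2 and H3K4me1. All cells came from spleens of OT1 mice, a line with a transgenic T cell receptor against ovalbumin, and all were activated for 48 h with anti-CD3 and anti-CD28 and then expanded for 3 days in IL-2. The vehicle group (Veh) received the solvent only, and the GSK group received 0.5 μM GSK2879552, an irreversible LSD1 inhibitor, throughout both phases. There is 1 library per antibody and treatment, so values below have no replicate error and no difference between Veh and GSK was tested. Strain background, age and number of mice behind a library are not given in the labels, and the cells were stimulated once in culture rather than chronically.

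PD-1, the product of Pdcd1, and TIM-3, the product of Havcr2, are inhibitory receptors that restrain T cells after they bind ligands on other cells. CD39 (Entpd1), CD73 (Nt5e) and CD38 (Cd38) are enzymes on the cell surface. CD39 degrades extracellular ATP and ADP to AMP, CD73 turns AMP into adenosine, which dampens T cells through adenosine receptors, and CD38 breaks down NAD. LSD1 demethylates H3K4me1 and H3K4me2, the marks of enhancers and promoter flanks, while H3K4me3 sits at promoters and H3K27ac at active promoters and enhancers. Genes of this kind are controlled by their promoter and by enhancers that can lie far from it, which is why the distal peaks are described first.

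A set of 9 LSD1 sites that carry contrasts described below is shown by the DNA at their summits. For each locus the distal LSD1 peak with the highest −log10 p was taken among peaks overlapped by a peak of the other treatment, called in Veh only and called in GSK only. Windows span the summit and 100 bases on either side, and 9 with a −log10 p of at least 6.5 are printed. Sequences are the plus strand of GRCm38 read 5′ to 3′, none of the 9 windows overlaps an annotated exon, and capitals mark a match to 1 of 7 short motifs that were searched on both strands.
Pdcd1, 17.3 kb downstream, LSD1 in both, chr1:94035149-94035349: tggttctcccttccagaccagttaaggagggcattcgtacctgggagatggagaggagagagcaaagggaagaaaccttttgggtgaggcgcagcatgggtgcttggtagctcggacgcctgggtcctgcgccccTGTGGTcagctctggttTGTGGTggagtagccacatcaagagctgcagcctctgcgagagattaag
Pdcd1, 3.6 kb upstream, LSD1 in GSK only, chr1:94056084-94056284: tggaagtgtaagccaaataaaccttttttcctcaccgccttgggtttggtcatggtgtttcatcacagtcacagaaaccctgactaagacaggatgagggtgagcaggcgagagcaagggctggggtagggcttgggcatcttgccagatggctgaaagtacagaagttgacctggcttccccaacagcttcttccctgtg
Havcr2, 12.3 kb downstream, LSD1 in both, chr11:46467166-46467366: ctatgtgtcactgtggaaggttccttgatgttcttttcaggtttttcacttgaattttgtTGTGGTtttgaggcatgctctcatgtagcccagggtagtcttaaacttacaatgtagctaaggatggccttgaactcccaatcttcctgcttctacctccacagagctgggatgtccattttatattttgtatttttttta
Havcr2, 19.5 kb downstream, LSD1 in Veh only, chr11:46474309-46474509: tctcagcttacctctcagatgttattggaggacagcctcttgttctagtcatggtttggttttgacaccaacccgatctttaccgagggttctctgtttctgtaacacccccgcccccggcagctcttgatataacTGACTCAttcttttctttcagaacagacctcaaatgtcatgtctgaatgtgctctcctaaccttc
Entpd1, 49.1 kb downstream, LSD1 in GSK only, chr19:40661379-40661579: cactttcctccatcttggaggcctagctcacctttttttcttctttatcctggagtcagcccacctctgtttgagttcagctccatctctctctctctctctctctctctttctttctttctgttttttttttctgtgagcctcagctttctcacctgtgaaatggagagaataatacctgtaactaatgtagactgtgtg
Nt5e, 34.6 kb downstream, LSD1 in both, chr9:88362076-88362276: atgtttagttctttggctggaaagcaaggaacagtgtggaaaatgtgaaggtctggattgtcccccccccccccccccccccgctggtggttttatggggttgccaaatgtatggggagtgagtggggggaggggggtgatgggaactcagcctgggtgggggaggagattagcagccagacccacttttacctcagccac
Nt5e, 29.8 kb downstream, LSD1 in Veh only, chr9:88357288-88357488: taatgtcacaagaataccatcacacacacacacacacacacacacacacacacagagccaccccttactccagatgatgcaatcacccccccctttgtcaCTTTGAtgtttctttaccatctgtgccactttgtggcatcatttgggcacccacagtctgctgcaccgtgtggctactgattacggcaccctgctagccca
Cd38, 79.8 kb downstream, LSD1 in both, chr5:43948488-43948688: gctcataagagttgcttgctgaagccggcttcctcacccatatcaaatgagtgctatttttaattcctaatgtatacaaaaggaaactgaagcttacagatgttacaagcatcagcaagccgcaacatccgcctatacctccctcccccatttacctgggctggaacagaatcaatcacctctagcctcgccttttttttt
Cd38, 44.0 kb upstream, LSD1 in Veh only, chr5:43824729-43824929: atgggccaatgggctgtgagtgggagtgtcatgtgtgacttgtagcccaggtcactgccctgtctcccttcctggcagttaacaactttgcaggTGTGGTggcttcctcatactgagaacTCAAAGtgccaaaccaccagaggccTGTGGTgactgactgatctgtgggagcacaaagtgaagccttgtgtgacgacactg

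The motifs were RUNX (TGTGGT), AP-1 (TGANTCA), STAT (TTCNNNGAA), TCF (CTTTGA), ETS (CGGAAG), T-box (GGTGTGA) and GFI1 (AAATCA), families of DNA-binding factors with known roles in T cells or as partners of LSD1. RUNX letters were found in 4 of the 17 Veh windows and 4 of the 15 GSK windows of distal LSD1 peaks at the 5 loci, against 32.1% and 25.7% of all distal LSD1 windows of the same length. AP-1 letters were in 3 Veh and 2 GSK windows (13.0% and 9.95% of all), and STAT letters in 2 and 1 (8.24% and 6.39%). TCF letters were in 3 and 1 (13.8% and 12.2%), GFI1 letters in 2 and 0 (11.8% and 9.04%), and ETS letters (6.59% and 7.26%) and T-box letters (5.04% and 4.7%) in none. The window at Pdcd1, 17.3 kb downstream, holds the RUNX letters at 2 positions, and the shared windows of Nt5e and Cd38 printed above hold none of the 7 motifs.

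The reference marks repeats as soft-masked bases, and over 50% of the bases were masked in 5 of the 17 Veh windows and 3 of the 15 GSK windows, against 22.4% and 25.2% of all distal LSD1 windows. The median masked share was 15.4% of bases in Veh and 21.9% in GSK, against 13.4% and 15.4% of all. It was 88.6% at the Entpd1 site 21.3 kb downstream and 64.2% at the Havcr2 site 12.3 kb downstream, but 10.4% at the Pdcd1 site 17.3 kb downstream. Reads were kept by the authors only where they mapped to 1 place, and what this does to peaks in repeats was not tested.

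**Figure D1:**
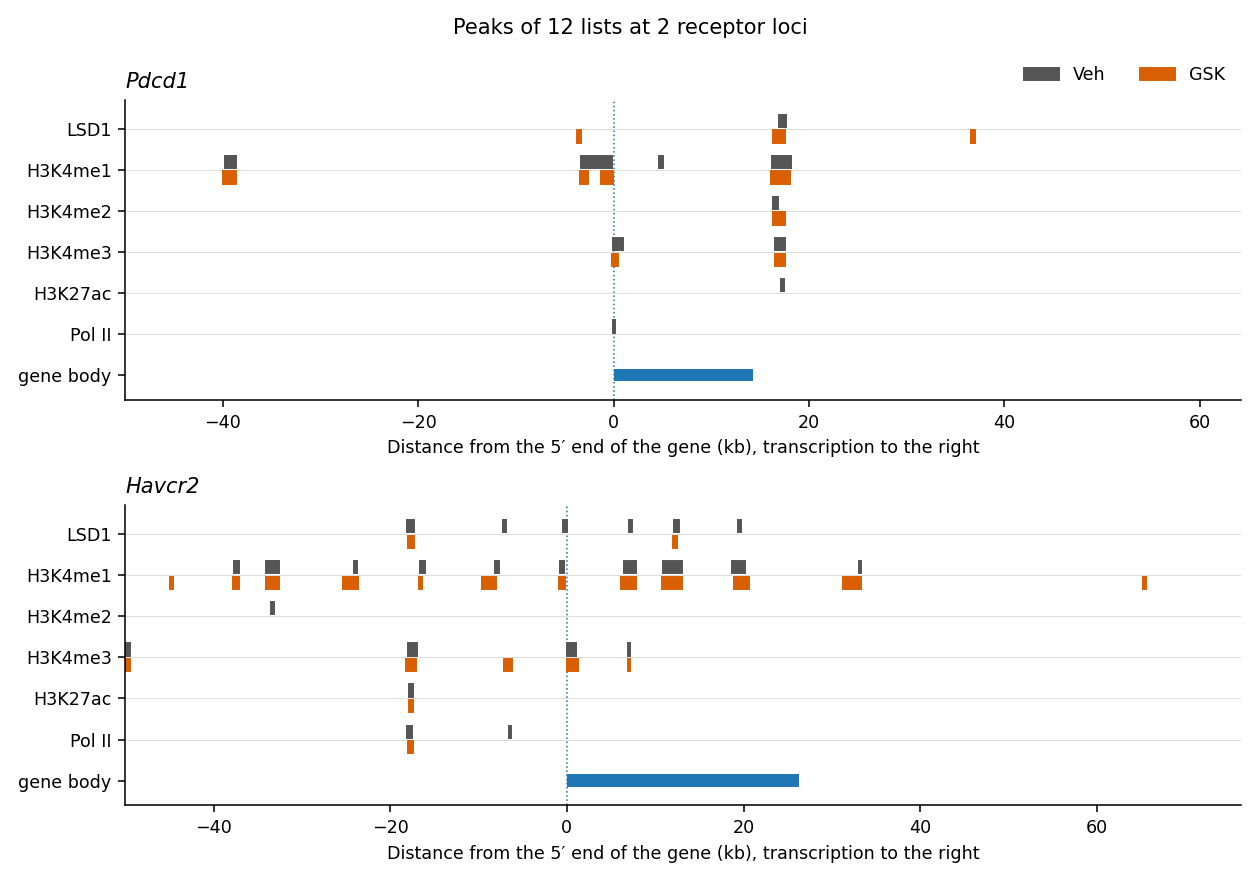
Peaks of the 12 lists around Pdcd1 and Havcr2 by distance from the 5′ end of the gene in kb (horizontal axis), with 1 line per antibody, Veh in grey above and GSK in orange below. The blue bar is the gene body, the dotted line the TSS, and boxes are peaks to scale with a thin outline that widens the narrowest; the column of peaks 17 kb downstream of Pdcd1 and the H3K4me1 peaks spread over Havcr2 stand out.

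Pdcd1 lies on the minus strand at chr1:94038305-94052553, and 9 of the 12 lists had a distal peak at a single element near it, chr1:94034356-94036482. It lies between genes and 17.1 kb downstream of the TSS, beyond the 3′ end of Pdcd1 and nearer to the TSS of Neu4 than to that of Pdcd1. The LSD1 peak had a fold enrichment over local background of 8.75 in Veh and 6.49 in GSK, and a −log10 p of 24.6 and 11.3. The Veh peak ranked at percentile 97.2 of the fold of its list, the highest place of any distal LSD1 peak at the 5 loci.

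The histone marks at this Pdcd1 element were called in both treatments apart from H3K27ac. H3K4me1 had folds of 4.12 in Veh and 3.42 in GSK, and H3K4me2 had folds of 5.54 and 4.57. H3K4me3 had folds of 5.04 and 5.94, so it was the mark with the higher fold in GSK. H3K27ac had a peak in Veh only, with a fold of 5.19 at a −log10 p of 13.5. That peak is among the stronger ones of its list: 354 distal Veh H3K27ac peaks had a −log10 p at least as high, and 72.9% of them were overlapped by a GSK peak. Over all distal Veh H3K27ac peaks the share was 29.1%.

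The other distal LSD1 peaks of Pdcd1 were in the GSK list only. One lay 3.6 kb upstream (fold 4.45, −log10 p 6.89), beside a GSK H3K4me1 peak 3.0 kb upstream with a fold of 2.5. The other lay 36.7 kb downstream and 4.6 kb from the Neu4 TSS (fold 3.89, −log10 p 4.82). Of the GSK distal LSD1 peaks at least as strong as the upstream one, 76.7% were overlapped in Veh. H3K4me1 was also called 39.2 kb upstream in both lists (folds 4.50 and 4.77), and in intron 1, 4.9 kb downstream, in Veh only (fold 3.47, −log10 p 7.20). No distal Pol II peak was listed in the Pdcd1 region.

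Enhancers and conserved elements of Pdcd1 have been mapped by others at fixed distances from the TSS, and the lists were read there. From 0.5 to 1.5 kb upstream, where conserved regions B and C lie, the only peaks were H3K4me1, with folds of 2.49 in Veh and 2.35 in GSK. In Veh this was a single peak of 3143 bp that reached into the TSS window, and in GSK there were separate peaks of 1261 and 895 bp. From 3 to 5 kb upstream 3 lists had a peak: H3K4me1 in both treatments and LSD1 in GSK. From 22 to 26 kb upstream none of the 12 lists had a peak, whereas from 16 to 18 kb downstream 9 did.

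Havcr2 lies on the plus strand at chr11:46454931-46481255, and its region was rich in H3K4me1. There were 9 distal H3K4me1 peaks in Veh and 11 in GSK. By number of peaks per length of region, it was at percentiles 97.8 and 98.7 among the same regions of 21000 protein-coding genes. All 9 Veh peaks were overlapped by a GSK peak. The GSK list had further peaks 44.7 kb upstream (fold 3.13) and 65.3 kb downstream (fold 3.95). Distal H3K4me1 covered 8.96 kb in Veh and 14.2 kb in GSK here. It also covered more in GSK at Pdcd1 (3.5 and 4.2 kb) and less in GSK at Entpd1 (15.6 and 14.1 kb), Cd38 (7.49 and 5.74 kb) and Nt5e (6.41 and 5.49 kb). The Pdcd1 values depend on the distal rule. A Veh peak of 3143 bp there touched the TSS window and was not counted. In GSK the same stretch held peaks of 1261 and 895 bp, and the one of 895 bp counted as distal. The widest distal H3K4me1 peak of Havcr2 lay 12 kb downstream in Veh, with 2229 bp, and 11.9 kb downstream in GSK, with 2216 bp.

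Distal LSD1 at Havcr2 was listed at 4 sites in Veh and at 1 in GSK. The shared site was in intron 4, 12.3 kb downstream, with folds of 6.28 in Veh and 5.07 in GSK and a −log10 p of 13.7 and 9.19. The site in intron 5, 19.5 kb downstream, had a Veh fold of 6.19 at a −log10 p of 11.9 and no GSK peak. The Veh folds at these sites were nearly equal, yet only the first had a GSK peak. Of the 2062 distal Veh LSD1 peaks at least as strong as the one in intron 5, 76.9% were overlapped in GSK.

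The remaining Veh-only LSD1 sites of Havcr2 were weaker. One was in intron 3, 7.2 kb downstream (fold 4.89, −log10 p 9.20), and one lay 7.2 kb upstream (fold 4.19, −log10 p 6.98). All 3 LSD1 sites within the gene sat in H3K4me1 elements called in both treatments. The intron 3 element, chr11:46461008-46462799, also had H3K4me3, with folds of 5.38 in Veh and 4.87 in GSK over 220 and 229 bp.

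The site upstream of Havcr2 had another pattern. Next to the Veh LSD1 peak there, GSK had an H3K4me3 peak 6.7 kb upstream (fold 4.64, −log10 p 8.60) and Veh had a Pol II peak 6.4 kb upstream (fold 3.19, −log10 p 3.92), a value near the cutoff of the Pol II list. Of GSK distal H3K4me3 peaks at least as strong, 92.1% were overlapped in Veh. The curated RefSeq set has no start here, but GENCODE M21 places the first base of a long intergenic noncoding RNA gene, 2310031A07Rik, at chr11:46447248, within 1 kb of the LSD1 and H3K4me3 peaks. H3K4me2 was called once, 33.3 kb upstream in Veh (fold 4.85), and no distal H3K27ac peak was listed in either treatment. The H3K27ac of the region was at the promoter of Med7, a Mediator subunit gene 18 kb upstream, with folds of 5.23 in Veh and 6.49 in GSK.

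**Figure D2:**
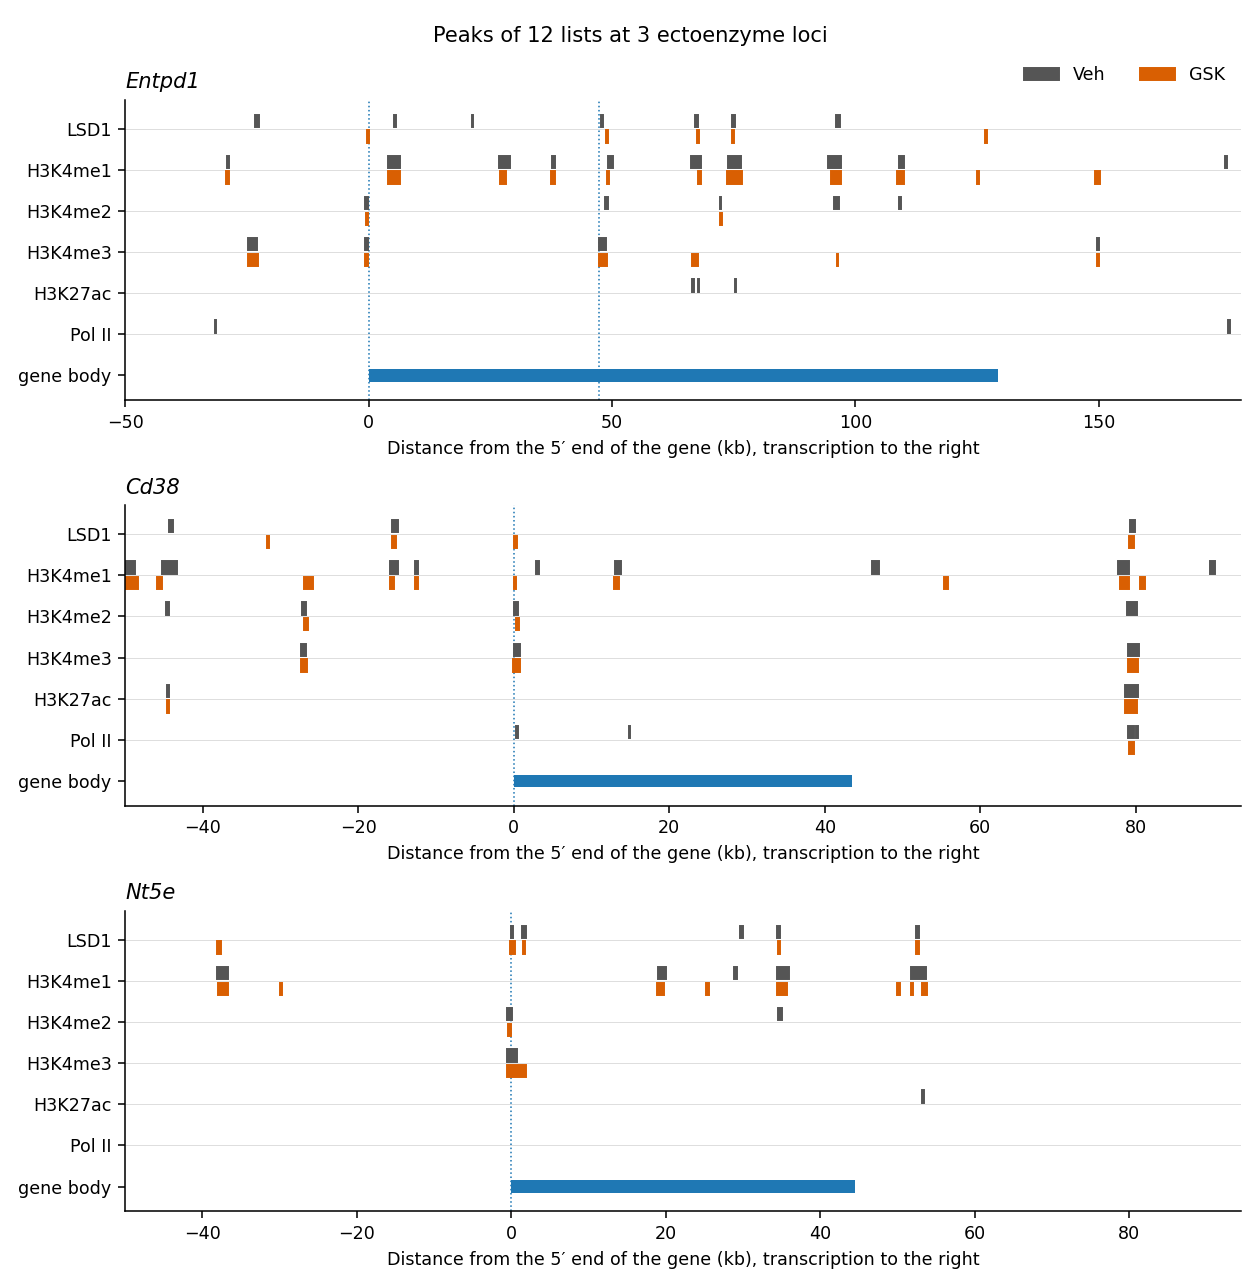
Peaks of the 12 lists around Entpd1, Cd38 and Nt5e by distance from the 5′ end of the gene in kb, with 1 line per antibody, Veh in grey above and GSK in orange below. The blue bar is the gene body and dotted lines are TSSs, of which Entpd1 has a second 47.4 kb inside the gene; boxes are peaks to scale with a thin outline, and the element 79 kb downstream of Cd38 has peaks of all 6 antibodies.

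Entpd1 lies on the plus strand at chr19:40612366-40741602 and has curated TSSs 47.4 kb apart, so that its long first intron holds most of the distal peaks. Distances are given from the upstream TSS. LSD1 had 5 distal peaks in Veh and 4 in GSK, and 2 sites were shared. At 67.5 kb the folds were 4.61 in Veh and 4.42 in GSK, with a −log10 p of 8.97 and 7.69. At 74.9 kb they were 4.66 and 3.87, with a −log10 p of 10.7 and 6.40.

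Both shared LSD1 sites of Entpd1 had H3K4me1 in both treatments and H3K27ac in Veh alone. In the element chr19:40678659-40680638 H3K27ac was called at 66.7 kb (fold 3.14) and 67.8 kb (fold 3.27), and in the element chr19:40685950-40688966 at 75.3 kb (fold 3.73). These 3 Veh peaks have a −log10 p of 6.39, 7.52 and 10.7. Of distal Veh H3K27ac peaks at least as strong as each, 30.1%, 37.3% and 62.4% were overlapped in GSK. These shares include all stronger peaks of the list. H3K4me3 was called at 67.1 kb in GSK only (fold 3.69, −log10 p 6.80), at percentile 4.87 of −log10 p in its list. The second element held the widest H3K4me1 peak of the locus in GSK, with 3017 bp and a fold of 2.40, against 2678 bp and 2.55 in Veh.

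LSD1 peaks called in Veh only lay in intron 1 of Entpd1 at 5.4 kb (fold 3.73), 21.3 kb (fold 3.72) and 96.4 kb (fold 3.85), all with a −log10 p under that of the shared sites in Veh. The first and the last were within H3K4me1 elements of both treatments, and the middle one had no other peak. At 96.4 kb Veh also had H3K4me2 (fold 4.54) and GSK had H3K4me3 over 212 bp (fold 4.88, −log10 p 8.30). The widest Veh H3K4me1 peak of the locus, of 2685 bp, was in this element.

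The GSK-only LSD1 peaks of Entpd1 included the strongest distal LSD1 peak of the region in GSK. It lay at 49.1 kb, 1.7 kb past the second TSS, with a fold of 6.01 at a −log10 p of 10.5, and 90.6% of GSK distal LSD1 peaks at least that strong were overlapped in Veh. The Veh list had an LSD1 peak 0.6 kb past the second TSS and within its window (fold 3.3, −log10 p 4.67). Its end and the start of the GSK peak are separated by 695 bases. GENCODE M21 and the predicted RefSeq transcripts place further Entpd1 starts within 1 kb of the GSK peak, so it is distal only in the curated set. The GSK peak at 49.1 kb overlapped an H3K4me2 peak called in Veh only, at 48.9 kb (fold 3.73). It also overlapped H3K4me1 peaks of both treatments. A weaker GSK-only LSD1 peak, at 126.8 kb, overlapped an exon near the 3′ end (fold 3.83, −log10 p 4.74).

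Elsewhere at Entpd1, H3K4me2 had a shared peak at 72.3 kb with a fold of 3.56 in either list, and a Veh-only peak at 109.1 kb (fold 4.70). H3K4me1 was called in GSK only at 125.2 kb (fold 4.67) and 149.7 kb (fold 4.54), and in Veh only at 176.2 kb (fold 4.58). The highest distal H3K4me3 folds of the 5 loci were at 149.9 kb, in intron 6 of the neighbouring gene Cc2d2b, with 9.02 in Veh and 9.49 in GSK over 409 and 420 bp. No Pol II peak was listed there in either treatment. Distal Pol II was called in Veh only, in introns of Aldh18a1 at 31.4 kb upstream (fold 3.06) and of Cc2d2b at 176.7 kb downstream (fold 2.80), each with a −log10 p of at most 3.56.

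Nt5e lies on the plus strand at chr9:88327609-88372089, and of the 5 genes it kept the largest number of distal LSD1 sites, with 3 of its 4 Veh peaks overlapped in GSK. At 1.7 kb downstream, in intron 1, the folds were 4.62 in Veh and 4.21 in GSK. At 34.5 kb, in intron 3, they were 3.83 and 6.45, and the −log10 p was 6.83 and 13.2. At 52.6 kb, in an exon of the neighbouring gene Snx14, they were 4.20 and 4.52. The site in intron 3 had the largest GSK excess of the 9 shared sites of the 5 loci, and the site at 1.7 kb fell inside the promoter H3K4me3 peak of GSK (2489 bp) and past the end of that of Veh (1270 bp).

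Around the intron 3 site of Nt5e, H3K4me1 had folds of 2.78 in Veh and 3.18 in GSK, and its −log10 p was 8.77 and 15.4. H3K4me2 was called there in Veh only (fold 4.61, −log10 p 7.49). Both LSD1 and H3K4me1 thus had higher values in GSK at this element, chr9:88361957-88363504, while the H3K4me2 list of GSK had no peak. Among distal Veh H3K4me2 peaks at least as strong, 52.8% were overlapped in GSK.

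The Nt5e site 29.8 kb downstream, also in intron 3, had LSD1 in Veh only, with a fold of 5.1 at a −log10 p of 11.0. It was the strongest distal LSD1 peak of the region in Veh. Of distal Veh LSD1 peaks at least as strong, 74.2% were overlapped in GSK. Just upstream, H3K4me1 was called at 29.0 kb in Veh only (fold 2.78) and at 25.4 kb in GSK only (fold 3.33). A GSK-only LSD1 peak lay 37.8 kb upstream (fold 3.69, −log10 p 4.51), in the element with the widest GSK H3K4me1 peak of the locus (1401 bp), which was called in both treatments.

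Towards the 3′ end of Nt5e, the Snx14 element chr9:88379291-88381381 had LSD1 and H3K4me1 in both lists and H3K27ac in Veh only, at 53.3 kb (fold 3.65, −log10 p 7.13). Its H3K4me1 was 1 peak of 1994 bp in Veh, the widest of the locus, and 2 peaks of 355 and 645 bp in GSK. Further H3K4me1 peaks in GSK only lay 29.9 kb upstream (fold 4.06) and 50.1 kb downstream (fold 2.45). Neither Pol II nor H3K4me3 had a distal peak at Nt5e.

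Cd38 lies on the plus strand at chr5:43868809-43912374. The fullest element of the 5 loci was in its region, chr5:43946584-43949185, between genes and 79.1 kb downstream of the Cd38 TSS, past the end of the gene. LSD1 there had folds of 5.66 in Veh and 5.87 in GSK, and H3K4me3 had 4.11 and 4.74. H3K27ac had folds of 3.97 and 4.64, over 1700 and 1551 bp. Pol II had folds of 6.80 and 4.69, with a −log10 p of 17.4 and 10.4, and this was the only distal Pol II peak of the 5 loci called in both treatments.

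Most antibodies had a peak at this Cd38 element in both lists. H3K4me1 flanked it on the upstream side in both (folds 2.96 and 2.76) and on the downstream side in GSK only, at 80.9 kb (fold 2.61). H3K4me2 was called in Veh only (fold 3.81, −log10 p 6.73), as was a further narrow Pol II peak at 80.2 kb (fold 3.32). The nearest curated TSS was that of Fgfbp1, 33.5 kb away from the GSK LSD1 summit. GENCODE M21 lists at this place the starts of Gm43183, at chr5:43948116 on the plus strand, and Gm43184, at chr5:43948661 on the minus strand, both of the class to be experimentally tested. By that annotation the element is a TSS rather than a distal site.

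Upstream of Cd38, H3K27ac was called in both treatments in intron 4 of Bst1, a gene for a related ectoenzyme, 44.5 kb upstream of Cd38 (folds 3.32 and 4.45). This element, chr5:43822919-43825481, also had H3K4me1 in both lists, the widest Veh one of the locus (1972 bp), and H3K4me2 (fold 4.49) and LSD1 (fold 4.33, −log10 p 6.95) in Veh only. Among distal sites of the 5 loci, H3K27ac was called in both treatments only at the Bst1 element and at the element 79.1 kb downstream, both in the Cd38 region.

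The other LSD1 peaks of the Cd38 region had lower folds. The site 15.5 kb upstream was shared, with folds of 3.45 in Veh and 3.41 in GSK, and the site 31.5 kb upstream, in intron 6 of Bst1, was in GSK only (fold 3.81, −log10 p 4.70). GENCODE M21 places a start of Bst1 inside this GSK-only peak, at chr5:43837114, so it is distal only in the curated set. At 27 kb upstream, in intron 8 of Bst1, H3K4me3 had folds of 4.68 and 4.74, with H3K4me2 in both lists (5.85 and 4.95) and H3K4me1 in GSK only (fold 3.62). Pol II had a Veh-only peak in intron 1 of Cd38, 14.8 kb downstream (fold 3.64, −log10 p 4.62).

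H3K4me1 at Cd38 had 8 distal peaks in either list, and 3 of each had no counterpart in the other. In Veh these lay 3.0 kb (fold 2.98), 46.5 kb (fold 5.1) and 89.9 kb downstream (fold 5.40, −log10 p 9.41). In GSK they lay 26.4 kb upstream and 55.6 kb (fold 5.07) and 80.9 kb downstream. Of distal Veh H3K4me1 peaks at least as strong as the one at 89.9 kb, 98.1% were overlapped in GSK. The widest GSK peak of the locus had 1210 bp.

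**Figure D3:**
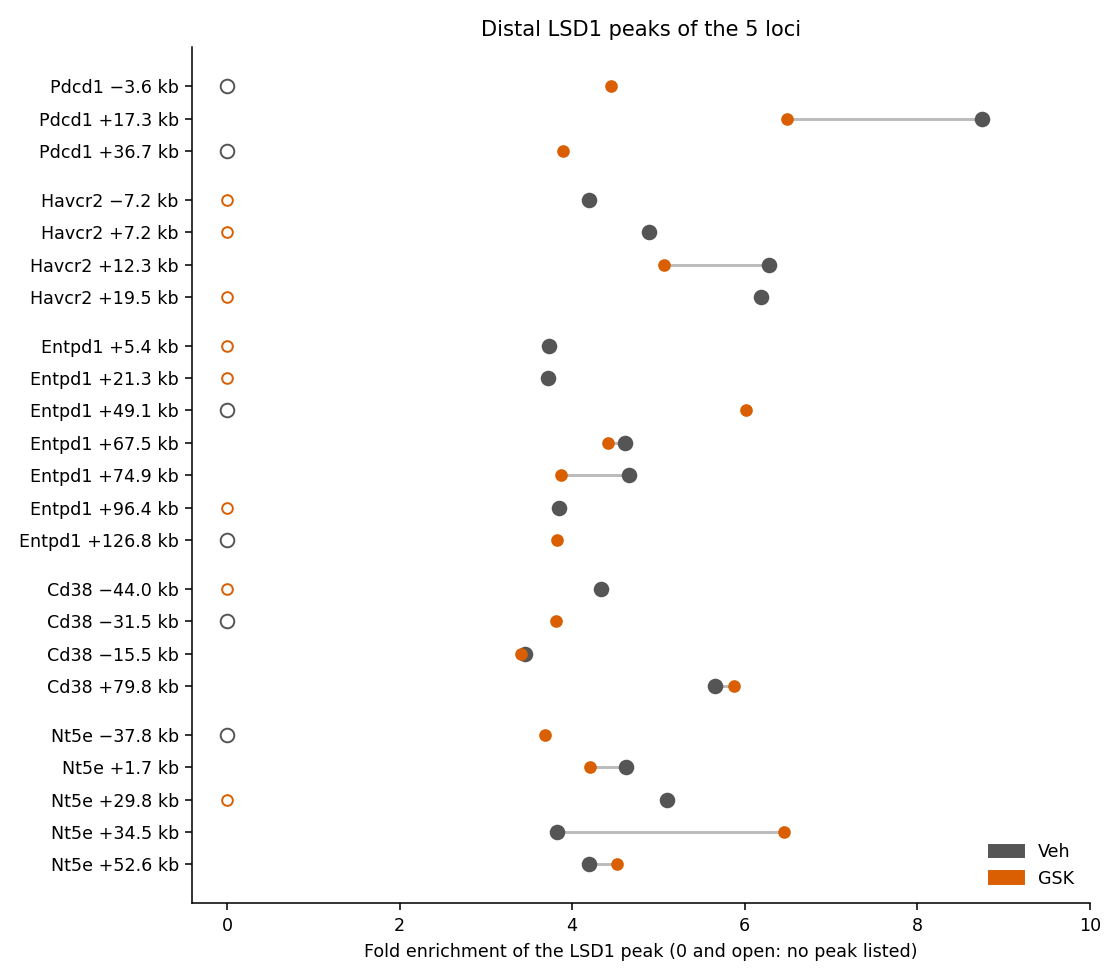
Fold enrichment of the distal LSD1 peaks (horizontal axis) at each of 23 sites of the 5 loci, named by distance from the 5′ end of the gene, with Veh in grey and GSK in orange. A line joins the values of the 9 shared sites, and open circles at 0 mark a list without a peak at the site; 8 sites have a Veh peak alone and 6 a GSK peak alone.

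Taking the 5 loci as one set, distal LSD1 was shared at 9 sites. Of the 17 distal Veh LSD1 peaks, 9 (52.9%, exact 95% interval 27.8% to 77.0%) were overlapped by a GSK peak, against 34.9% of the 12563 distal Veh LSD1 peaks in the genome. Of the 15 distal GSK peaks, 9 (60.0%, 32.3% to 83.7%) were overlapped in Veh, against 43.7%. The genome shares lie within both intervals. The members' peaks had a median −log10 p of 8.97 in Veh and 7.00 in GSK, above the medians of 6.19 and 5.78 over all distal LSD1 peaks, and stronger peaks were more often shared throughout the lists, as the shares given with single peaks show. By gene, the shared Veh peaks were 1 of 1 at Pdcd1, 1 of 4 at Havcr2, 2 of 5 at Entpd1, 2 of 3 at Cd38 and 3 of 4 at Nt5e. At the loci of the inhibitory receptors Lag3, Tigit, Btla and Cd160, 4 of 9 Veh peaks were shared, and the difference was not tested.

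Histone marks accompanied the shared LSD1 sites most often. H3K4me1 of either treatment overlapped 7 of the 9 shared Veh LSD1 peaks, 5 of the 8 in Veh only and 3 of the 6 in GSK only. Over all distal LSD1 peaks of those classes the shares were 72.5%, 45.7% and 35.5%. H3K27ac overlapped 4 of the 9 shared Veh peaks and none of the 8 or the 6, and over the genome 22.8%, 7.35% and 4.66%. At the Veh-only LSD1 site in Bst1, H3K27ac of both treatments lay in the same element without touching the LSD1 peak.

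For H3K4me1, 29 of 35 distal Veh peaks (82.9%, 66.4% to 93.4%) were overlapped in GSK, against 87.7% in the genome, and 31 of 41 GSK peaks (75.6%, 59.7% to 87.6%) in Veh, against 75.9%. The number of distal H3K4me1 peaks at the loci was thus 35 in Veh and 41 in GSK, and the counts were equal at Pdcd1 and Cd38. The whole lists also had more in GSK, with 26723 distal peaks in Veh and 30846 in GSK. For H3K4me1 the GSK library was the deeper one by the read numbers the study states, and the part of depth was not tested. For H3K4me3, all 5 Veh peaks were overlapped in GSK (genome 92.0%), and 5 of 8 GSK peaks (62.5%, 24.5% to 91.5%) in Veh (genome 77.7%). The 3 distal H3K4me3 peaks without a Veh counterpart were at Havcr2 and Entpd1.

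At the 5 loci H3K4me2 and H3K27ac had more distal peaks in Veh than in GSK, as did the whole lists, with 6015 distal H3K4me2 peaks in Veh and 2900 in GSK and 3009 and 947 distal H3K27ac peaks. With both lists reduced to the same length, 5 Veh and 3 GSK H3K4me2 peaks and 3 Veh and 2 GSK H3K27ac peaks were left at the loci. In the full lists, 3 of 10 Veh H3K4me2 peaks (30.0%, 6.67% to 65.2%) were overlapped in GSK, against 38.8% of all, and all 3 GSK peaks in Veh, against 81.7%. For H3K27ac, 2 of 7 Veh peaks (28.6%, 3.67% to 71.0%) were overlapped in GSK, against 29.1% of all, and both GSK peaks in Veh, against 95%. The members' shares were near those of the whole lists, and the GSK H3K27ac list was shorter throughout, with 2751 peaks against 7410 in Veh. By the read numbers the study states, the Veh library was the deeper one for both marks, and for H3K27ac by far. The part of depth in these numbers and in the absence of GSK H3K27ac peaks at Pdcd1, Entpd1 and Nt5e was not tested.

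Distal Pol II had 6 peaks in Veh and 1 in GSK at the loci, and 8752 and 9625 in the whole lists. Of the 6, 1 (16.7%, 0.421% to 64.1%) was overlapped in GSK, against 14.3% of all distal Veh Pol II peaks, and the GSK peak was overlapped in Veh, against 12.9%. Both belong to the Cd38 element 79.1 kb downstream. The Veh-only Pol II peaks had a −log10 p between 3.03 and 5.13. For Pol II the GSK library was the deeper one by the read numbers the study states, and the part of depth was not tested.

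**Figure D4:**
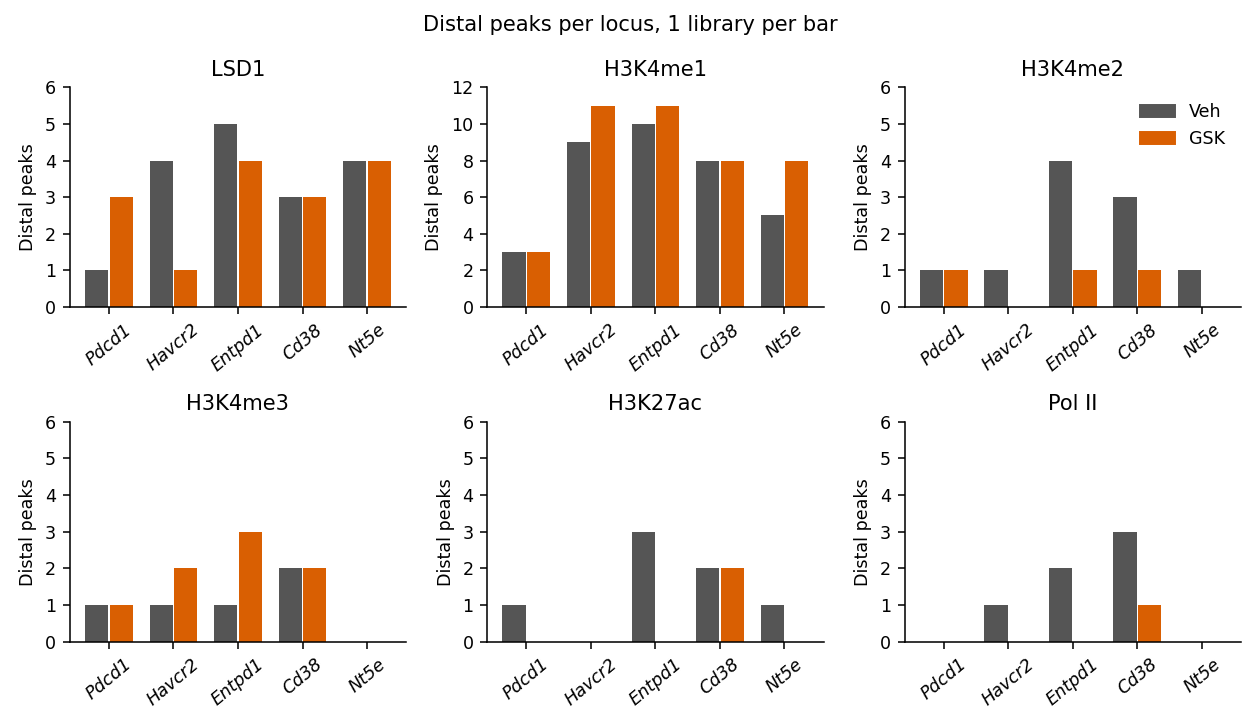
Number of distal peaks (vertical axis) in the region of each gene for 6 antibodies, with Veh in grey and GSK in orange and 1 library behind every bar; the H3K4me1 panel reaches to 12 and the others to 6. Havcr2 has 4 Veh LSD1 peaks and 1 GSK peak, Pdcd1 has 1 and 3, and H3K27ac is listed in GSK at Cd38 alone.

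Neighbouring distal peaks of any list merged into 57 elements, of which 5 belonged to Pdcd1, 12 to Havcr2, 17 to Entpd1, 13 to Cd38 and 10 to Nt5e. Peaks of both treatments were found in 34 elements (59.6%), of Veh alone in 11 (19.3%) and of GSK alone in 12 (21.1%). Peaks that touched a TSS window were left out of the merge. The Pdcd1 element 3.2 kb upstream thus counts as GSK alone, although the Veh H3K4me1 peak of 3143 bp overlaps it. The same merge over the whole lists gave 58831 elements, of which 45.1% held peaks of both treatments, 24.2% of Veh alone and 30.7% of GSK alone. A single antibody accounted for 36 elements (63.2%), against 77.4% of all. At least 5 antibodies met in 2 elements (3.51%, against 2.39% of all), those downstream of Pdcd1 and of Cd38, which lie past the 3′ end of either gene.

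At the promoters, H3K4me3 and H3K4me2 were each called at the same genes in both lists, and Pol II and LSD1 were not. H3K4me3 was called at the promoters of all 5 genes in both lists, against 49.6% of 26180 genes. At Pdcd1 its folds were 6.07 in Veh and 6.43 in GSK, with a −log10 p of 27.1 and 19.4 and widths of 996 and 668 bp. At Havcr2 they were 4.10 and 4.45, at Cd38 8.05 and 8.10, and at Nt5e 5.26 and 4.06. The Nt5e peak with the lower fold, that of GSK, was the wider one (1270 bp in Veh and 2489 bp in GSK). Its −log10 p was 36.9 in Veh and 41.4 in GSK. The upstream Entpd1 promoter, with folds of 10.49 and 9.29, is shared with Tctn3, whose TSS lies 135 bp away on the opposite strand, and its H3K4me3 cannot be assigned to either gene. The −log10 p there was 114 in Veh and 85.2 in GSK. At the second Entpd1 TSS the folds were 5.1 and 5.0 and the −log10 p 34.9 and 25.8.

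Pol II was listed at the promoters of Pdcd1 and Cd38 and in Veh only. At Pdcd1 the Veh peak had a fold of 6.04 at a −log10 p of 10.5, and 91.3% of the 3173 Veh Pol II peaks at a TSS that were at least as strong were overlapped by a GSK peak. At Cd38 the fold was 3.72 and the −log10 p 5.17, and the corresponding share was 75.2%. Among all genes, 22% had a promoter Pol II peak in both lists, 7.33% in Veh only and 2.94% in GSK only. Havcr2, Entpd1 and Nt5e had no promoter Pol II peak in either list.

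LSD1 was called at the promoter of Havcr2 in Veh only (fold 3.83), at Cd38 in GSK only (fold 3.65) and at Nt5e in both (folds 2.91 and 3.89). At Entpd1 the Veh peak was at the second TSS (fold 3.3) and the GSK peak at the upstream one (fold 4.46). The upstream promoter is the one shared with Tctn3, so its LSD1 and H3K4me2 peaks cannot be assigned to either gene. Pdcd1 had no promoter LSD1 peak. H3K4me2 was called in both lists at Entpd1, Cd38 and Nt5e, with folds between 4.40 and 5.88, and H3K4me1 in both at Pdcd1 and Havcr2 and in GSK only at Cd38 (fold 3.34). No H3K27ac peak touched a promoter of the 5 genes in either list. Over all genes, promoter LSD1 was in both lists for 31.9%, in Veh only for 4.44% and in GSK only for 9.74%. The same shares were 26.2%, 12.8% and 1.93% for H3K4me2, 26.9%, 3.41% and 9.85% for H3K4me1, and 8.25%, 12.3% and 0.332% for H3K27ac.

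**Figure D5:**
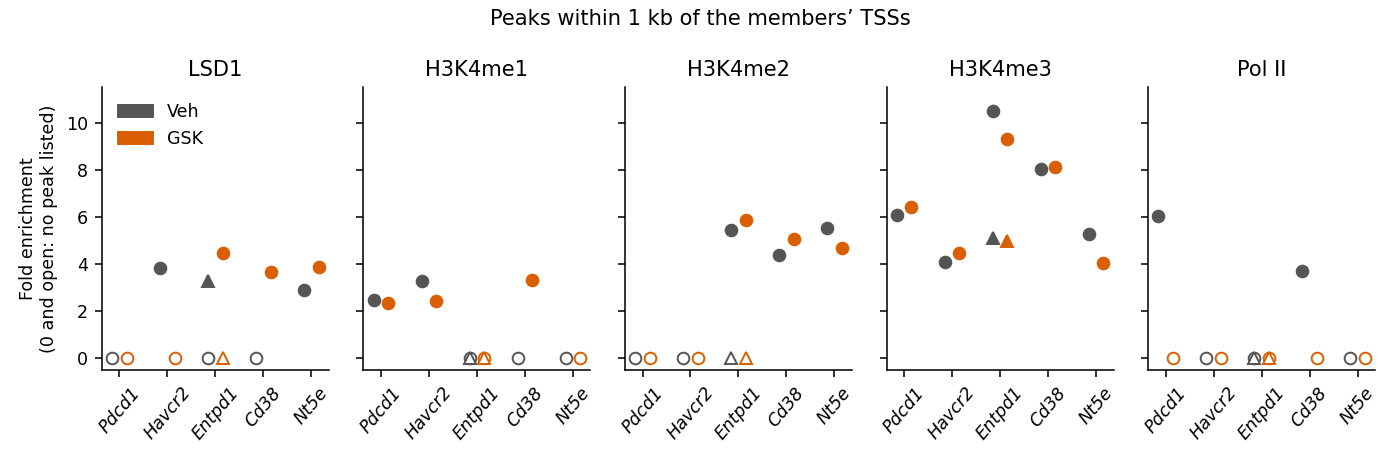
Fold enrichment (vertical axis) of peaks within 1 kb of the TSSs of the 5 genes for 5 antibodies, with Veh in grey and GSK in orange; open symbols at 0 mark a list without a peak, and for Entpd1 circles are the upstream TSS and triangles the second. H3K4me3 is present throughout, Pol II is listed at Pdcd1 and Cd38 in Veh alone, and H3K27ac, which had no promoter peak here, is not drawn.

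Genes that act with the members were read at their promoters. Of 10 genes for ligands and signalling partners of PD-1 and TIM-3, 8 had promoter H3K4me3 in both lists and 2 in neither. Pol II was called at 6 in both and at Lgals9, which encodes the TIM-3 ligand galectin-9, in Veh only. LSD1 was called at 4 in both and in GSK only at Ptpn6 (the phosphatase SHP-1), Lgals9 and Bag6. H3K27ac was called at 2 in both and in Veh only at Cd274, which encodes PD-L1. Over all genes, the shares in both lists were 49.6% for H3K4me3, 22% for Pol II, 31.9% for LSD1 and 8.25% for H3K27ac. Peaks in Veh only were at 7.33% of all genes for Pol II and 12.3% for H3K27ac, and LSD1 in GSK only at 9.74%.

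Of 12 genes for extracellular nucleotides, NAD and adenosine, 8 had promoter H3K4me3 in both lists. Pol II was called at 4 in both and at Nampt, an NAD salvage enzyme, in GSK only. LSD1 was called at 6 in both, in Veh only at Ada (adenosine deaminase) and P2rx7 (an ATP receptor), and in GSK only at Panx1 (an ATP release channel). H3K27ac was called at 2 in both and in Veh only at Adora2a, an adenosine receptor gene, whose promoter had H3K4me2 in GSK only. Over all genes, the shares in both lists were 49.6% for H3K4me3, 22% for Pol II, 31.9% for LSD1 and 8.25% for H3K27ac. Peaks in Veh only were at 4.44% of all genes for LSD1 and 12.3% for H3K27ac. Peaks in GSK only were at 9.74% for LSD1, 2.94% for Pol II and 1.93% for H3K4me2.

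As a check of the labelled cell type, promoter H3K4me3 was called in both lists at 8 of 8 CD8 T cell markers, at 1 of 4 B cell markers (Cd79b), and at none of 4 myeloid, 2 CD4 T and regulatory T or 2 NK cell markers. Promoter Pol II was called in both lists at 4 of the 8 CD8 T cell markers and in GSK only at Cd3d and Cd3g. It was in neither list at Cd8a, Cd2 or any marker of the other cell types. The shares of all genes in both lists were 49.6% for H3K4me3 and 22% for Pol II. Depth was not computed, since a peak list holds no read numbers, and intervals cover counting error only. A missing peak says that no region passed the cutoff of that list, not that the protein or mark was absent.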

How the data were processed

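ChIP-seq peak lists of 6 antibodies in Veh and GSK cells were analysed, 1 library each, so 12 lists in all, and the 4 input samples had no list and were not used here. Per the study's methods, reads with a unique place in mm10 (Bowtie2) were kept by the authors, duplicates were removed, and MACS2 called peaks per library at a cutoff of p 0.001. Libraries were also cut to equal read numbers by random picking to compare signals, and whether peaks were called on those reads is not stated. The study states that input data were the control for peak calling, but not which input served which list. The authors deposited a fold enrichment (the ratio of ChIP signal to the local background, set with that control), a −log10 p and a −log10 q for each peak. The deposited score column holds 10 times −log10 p (LSD1, Pol II) or −log10 q (histone marks), cut to a whole number, and was not used. Narrow peaks with summits were given for LSD1 and Pol II, and broad regions for the histone marks.

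TSSs were those of curated RefSeq transcripts of GRCm38.p6, the same build as mm10, and no peak passed a chromosome end. A peak was shared if a peak of the other treatment overlapped it by 1 bp or more. Shares were set beside the same share over all distal peaks of the list, with exact (Clopper-Pearson) 95% intervals. There were no tests, since no group has a replicate. The overlap steps were tested on simulated peaks. Named were all distal LSD1, H3K4me3, H3K27ac and Pol II peaks, and distal H3K4me1 and H3K4me2 peaks that met LSD1, were in 1 treatment only or were the widest of a locus. The summit sequence of 1 further site is not reported here. The members, gene lists and rules were chosen with earlier results of these data known. Alternatives were other region sizes, cutoffs, list lengths, overlap rules and annotations. Python 3.11.15, numpy 2.4.6, pandas 2.3.3, scipy 1.17.1 and matplotlib 3.10.9 were used.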

Additional observations from a re-analysis of the deposited data

How the results depend on the processing

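The 12 shares of distal peaks overlapped by the other treatment were recomputed under 9 alternatives, of which the GENCODE M21 TSSs were chosen after seeing the data. Of 104 recomputed shares, 98 stayed within the exact interval of the value reported and 6 did not, while 4 could not be computed because no peak was left. With 20 kb on each side, the Veh share was 0.0% for H3K27ac (5 peaks) and 0.0% for Pol II (2 peaks), since the Cd38 elements lie farther out. The Veh Pol II share was also 0.0% with GENCODE M21 TSSs (4 peaks), which count the element 79.1 kb downstream of Cd38 as a promoter, and 100.0% at the stricter cutoff (1 peak). The Veh H3K4me2 share was 0.0% at the stricter cutoff (5 peaks). When at least 50% of a peak had to be covered, the Veh H3K4me1 share was 62.9%. The LSD1 shares ran from 41.2% to 53.3% for Veh peaks and from 60.0% to 72.7% for GSK peaks over all alternatives. No paired analysis was possible because each antibody and treatment has 1 library and no result comes from a test. With lists of equal length, the Veh H3K4me2 share was 60.0% of 5 peaks and the Veh H3K27ac share 33.3% of 3 peaks. Peak numbers of 1 to 17 per list limit every share other than that of H3K4me1, and the part of depth, which the lists do not hold, was not tested.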
